A study of Arabis alpina with 27 samples.

Results

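The SAUR (SMALL AUXIN UP RNA) homologs of *Arabis alpina* were taken as the genes of the deposited count table whose listed *Arabidopsis thaliana* locus is 1 of 48 SAUR loci. This list was chosen with earlier results of these data known and is not the whole family. SAUR11, which the study names among genes lowered in cold, is not on it. Of these 48 loci, 32 had a gene in the table, 1 gene each, out of 21641 genes in all. The other 16 loci were not analysed here: SAUR19 to SAUR24, SAUR25, SAUR26, SAUR40, SAUR45, SAUR55, SAUR62 to SAUR65 and SAUR69. The files give loci, and the symbols used below are those of the *A. thaliana* family, so SAUR1 stands for the *A. alpina* homolog of AT4G34770. Gene expression was measured by poly-A RNA sequencing of main stems of the accession Pajares in 27 libraries, 3 for each of 9 groups, with the stems of 10 plants pooled in each library. The piece taken was the stem below the rosette, described as internodes 9 to 13 and free of axillary buds, the zone in which the study followed adventitious rooting.

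All plants first grew for 8 weeks in long days (LD) in a warm greenhouse, and those harvested then form the group 0w. The groups 4w, 8w, 12w, 16w and 21w are named for the number of weeks then spent in LD at 4°C, with harvest directly from the cold. The groups 12w+5dLD, 16w+5dLD and 21w+5dLD spent 5 further days in the LD greenhouse after the cold period in their name. Plants in the cold groups were older than the 0w plants, so an effect of cold cannot be told apart from one of age. By the study's methods the cold period was spent in growth chambers, not in the greenhouse. Comparing a cold group with 0w, or with its return group, is therefore also comparing chamber with greenhouse. Differences between these places other than temperature, such as in light or humidity, were not tested. No source used here states the time of day of harvest.

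SAUR genes are short early auxin response genes, and many of them are induced within minutes of an auxin pulse in *A. thaliana*. Several of the encoded proteins bind and inhibit PP2C.D phosphatases, which otherwise remove an activating phosphate from plasma membrane H+-ATPases, and the proton pumping that follows loosens the cell wall and permits elongation. The family is not uniform: members differ in tissue and in their response to auxin, light, temperature and age, and some act in growth arrest or leaf senescence.

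The total counts per library lay between 16089542 and 22523390 (median 19157979). Levels are given as CPM, counts relative to the library total after TMM scaling, a correction for library composition, with the mean ± SD over n = 3 libraries. The correlation of 21w+5dLD replicate 3 with its own group was 0.34 over the 1000 most variable genes, against 0.43 to 0.59 for the other 26 libraries. Its closest other group was 21w (0.54). Replicates 1 and 2 of 21w+5dLD, at 0.43 and 0.46 with their own group, were closer to 16w+5dLD (0.53 and 0.56). All libraries of 12w+5dLD and 16w+5dLD, and most cold libraries, also correlated better with another group than with their own. Results that rest on 21w+5dLD replicate 3 are given with and without it. The summed level of 6 xylem and fibre markers moved with cold: it was 2540 to 3460 CPM at 0w, between 18.3 and 800 CPM over the cold groups, and 175 to 1910 CPM after return. The sum of 3 phloem markers was 260 to 295 CPM at 0w, 118 to 248 CPM in cold and 57.1 to 254 CPM after return. The sum of 3 epidermis markers was 38 to 49.9 CPM at 0w, 5.5 to 28.8 CPM in cold and 2.3 to 12.2 CPM after return, with 1 of the 3 at 0 in all 3 libraries of 12w and of 16w+5dLD. Of 5 shoot meristem and flower markers, 2 were in the table and the shoot stem cell gene WUSCHEL was at 0 in every library, while the other summed to at most 3.76 CPM. The part of these cell types in the results below was not tested, and in pooled stem tissue fewer cells of a type and less RNA per cell cannot be told apart.

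Calls of lower or higher come from edgeR's quasi-likelihood test over 19337 genes and need both a 2-fold difference and an adjusted p (Benjamini-Hochberg) under 0.05. Of the 32 SAUR homologs, 30 passed the filter on low counts. For 5 of these, SAUR1, SAUR27, SAUR29, SAUR66 and SAUR67, only the 0w libraries carried enough counts to pass, so the counts of lower calls are a description of the genes that could be tested. The 2 that did not pass were SAUR12, with at most 2 counts in any library, and SAUR28.

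At each duration of cold more of the tested SAUR homologs were called lower than higher. The higher calls, 3 or 4 of 30 beside 5.14% to 7.07% of all tested genes, are not read as a family trait. At 4w, 7 of the 30 were lower (7.39% of all tested genes) and 3 were higher (5.6% of all tested genes). At 8w, 15 were lower against a background of 9.11% and 3 were higher against 6.26%. At 12w, 13 were lower (background 9.38%) and 4 higher (7.07%). At 16w, 12 were lower (background 10.2%) and 3 higher (7.07%). At 21w, 14 were lower (background 7.14%) and 4 higher (5.14%), and the count of lower calls was 9 without 21w replicate 2. The median log2 fold change of the 30 homologs was -0.59 in 4w, -1.04 in 8w, -0.86 in 12w, -0.77 in 16w and -1.06 in 21w, while that of all tested genes lay between -0.02 and 0.00. These 5 comparisons share the 0w libraries, so they are not independent of each other. The lower calls at 8w, 12w and 16w include SAUR1, SAUR27, SAUR29, SAUR66 and SAUR67, and those at 21w all of these but SAUR1. None of them was called at 4w by edgeR. DESeq2 called SAUR1 (log2 fold change -3.61, adjusted p = 0.00757) and SAUR66 (-3.27, adjusted p = 0.0383) lower there. All 5 of these homologs passed the filter only through their 0w counts, which favours a lower call. The counts and medians are therefore not a test against all genes.

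**Figure D1:**
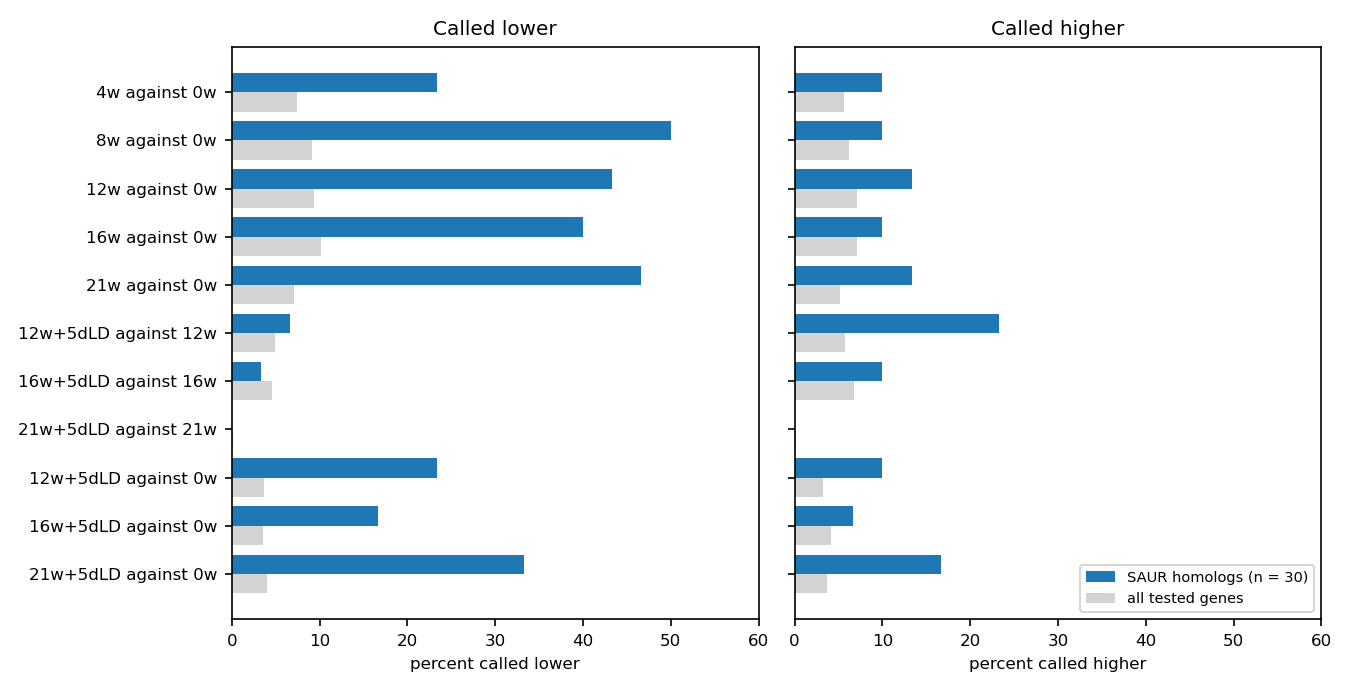
Percent of genes called lower (left) or higher (right) in each comparison, for the 30 tested SAUR homologs (blue) and for all tested genes (grey). The blue bars for lower calls in cold exceed the grey ones at every duration, from 7 of 30 homologs at 4w to 15 at 8w, and there is no blue bar for the return from 21w, where the grey bars are at 0.176% and 0.217%. Among the 30 homologs, 5 passed the filter only through the 0w libraries, which favours lower calls against 0w.

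Over the 5 durations edgeR called 17 of the 30 homologs lower at 1 or more (15.6% of all tested genes), 5 higher at 1 or more (11.3%), and 0 lower and higher at different durations. The 17 include SAUR1, SAUR27, SAUR29, SAUR66 and SAUR67, which passed the filter only through 0w, so 17 of 30 is not a test against that share. DESeq2 called SAUR76 lower at 8w (log2 fold change -3.66, adjusted p = 0.00595) and higher at 21w (1.69, adjusted p = 0.0133). SAUR16, SAUR30, SAUR50, SAUR51, SAUR52 and SAUR53 were lower at all 5 durations, and SAUR36 was higher at all 5. The remaining 8 tested homologs, SAUR10, SAUR14, SAUR31, SAUR32, SAUR44, SAUR70, SAUR71 and SAUR72, were called at no duration of cold by edgeR. Of these 8, DESeq2 called SAUR10 higher at 16w (log2 fold change 1.40, adjusted p = 0.043), SAUR44 at 4w (3.01, adjusted p = 0.0475) and SAUR70 at 16w (1.97, adjusted p = 0.0431) and 21w (2.11, adjusted p = 0.0356). The summed level of all 32 homologs was 282 ± 10.9 CPM in 0w, 245 ± 6.11 CPM in 4w and 224 ± 17.8 CPM in 8w. It was 250 ± 16.6 CPM in 12w, 278 ± 18.7 CPM in 16w and 275 ± 5.43 CPM in 21w. This sum rests largely on a few genes of high level. SAUR59 alone was at 41.9 ± 1.23 CPM in 0w, 92.9 ± 1.08 in 8w and 80.8 ± 10.2 in 21w.

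**Figure D2:**
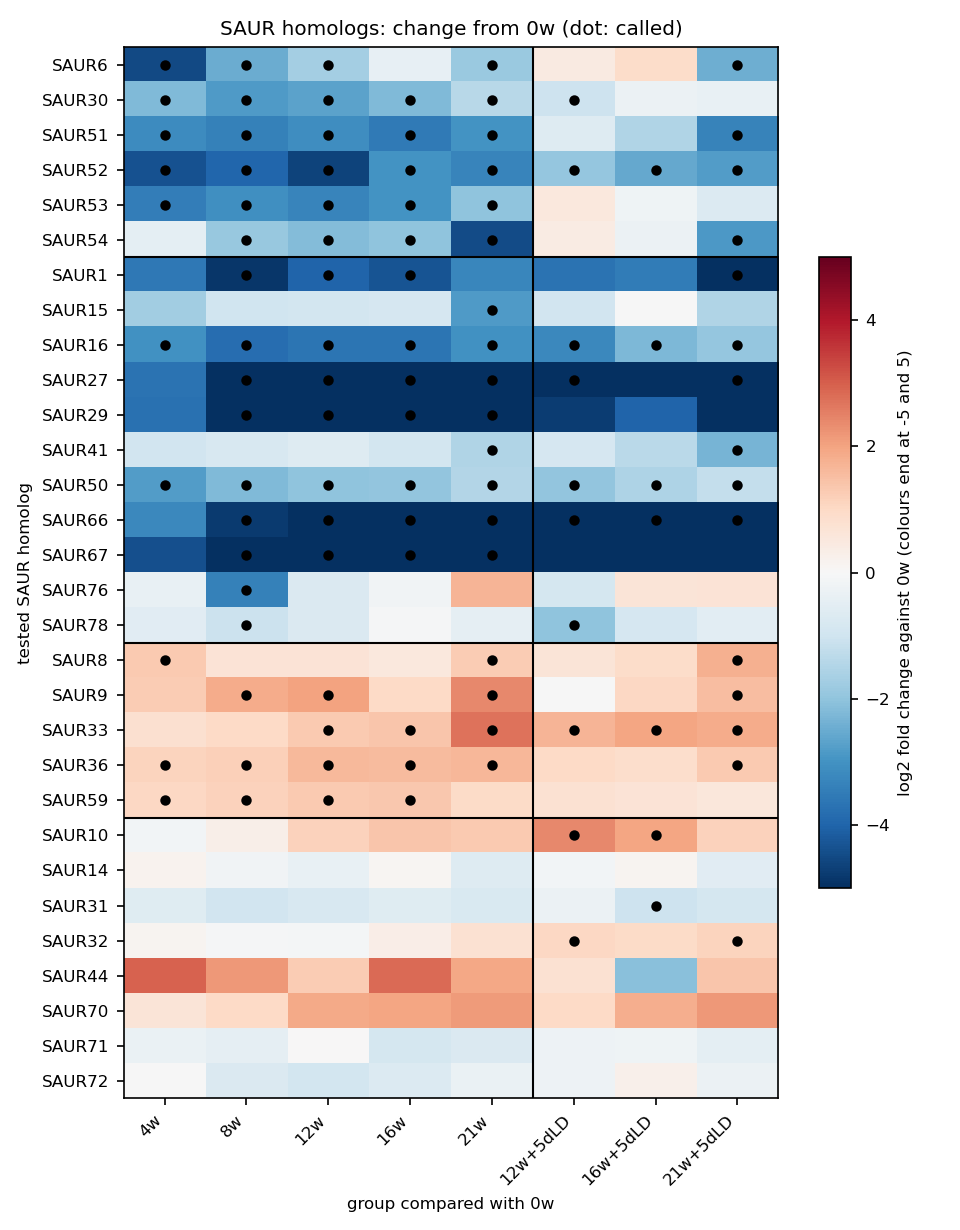
Log2 fold change of the 30 tested SAUR homologs against 0w in the 5 cold groups (left of the vertical line) and the 3 return groups (right), with blue for lower, red for higher and a dot for a call by edgeR. From top to bottom the blocks hold the 6 homologs lower in cold and higher on a return, the other 11 lower in cold, the 5 higher in cold and the 8 called at no duration of cold.

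Falls to counts at or near 0 were seen in the SAUR26 and SAUR63 clades, groups of closely related genes that promote organ and hypocotyl elongation in *A. thaliana*, the SAUR26 clade also with a role in growth at warm temperature. SAUR27 (AT3G03840) stood at 1.99, 1.65 and 3.75 CPM in the 0w libraries and at 0.0581, 0.156 and 0.34 CPM at 4w, and it had no count in any of the 12 libraries from 8w to 21w. Its level was therefore at least 45.2-fold lower in 8w, 44.7-fold in 12w, 45.9-fold in 16w and 49.4-fold in 21w, against a floor of 3 counts over the group. Bounds and intervals of this kind cover counting error only. SAUR29 (AT3G03820) followed it, from 1.69, 1.28 and 3.18 CPM in 0w to 0, 0.156 and 0.283 CPM in 4w and to no counts in 8w, 12w and 16w, which is at least 37.6-fold, 37.2-fold and 38.1-fold lower. At 21w SAUR29 had 1 count over the 3 libraries, a ratio of 123 to 0w with a 95% counting interval of 21.7 to 4910, and that call did not hold when 0w replicate 3, 21w replicate 1 or 21w replicate 2 was left out and was not made by DESeq2 (adjusted p = 0.064). SAUR28 (AT3G03830), with too few counts for the test, had 0.241, 0.78 and 1.57 CPM at 0w, 2 counts in all at 4w and none from 8w to 21w, at least 16.3-fold lower at each of those durations. All 3 members of this clade thus had counts in every 0w library and almost none from 8w on, while the 4w differences of SAUR27 and SAUR29 were not called (adjusted p = 0.0911 and 0.107, edgeR).

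In the SAUR63 clade, SAUR66 (AT1G29500) had 3.5, 1.93 and 3.75 CPM at 0w and 0.581, 0.104 and 0.283 CPM at 4w, and its highest value in any later library was 0.201 CPM. It was called lower by edgeR at 8w, 12w, 16w and 21w, and by DESeq2 also at 4w (log2 fold change -3.27, adjusted p = 0.0383). The 8w call did not hold when 0w replicate 1, 0w replicate 3, 8w replicate 1 or 8w replicate 2 was left out, and the 21w call without any single 21w library. At 12w all its libraries were at 0, at least 54.1-fold lower than 0w. SAUR67 (AT1G29510) had 1.45, 0.871 and 2.85 CPM at 0w, 0.233, 0 and 0 CPM at 4w and no count in the 21 libraries of later groups, those after return included. Its bounds were at least 31.5-fold, 31.1-fold, 31.9-fold and 34.4-fold lower at 8w, 12w, 16w and 21w, but its calls (adjusted p = 0.033 to 0.0397) were lost whenever any 1 library of the groups compared was left out, and DESeq2 did not make them (adjusted p = 0.386 to 0.421). After return SAUR66 was at no more than 0.141 CPM in any library, and neither gene was called on a return.

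SAUR1 (AT4G34770) also fell to low counts. Its values at 0w were 1.81, 1.93 and 4.85 CPM, and the highest in any cold library was 0.45 CPM. It was called lower at 8w, 12w and 16w (adjusted p = 0.0218, 0.0448 and 0.0331, edgeR, with log2 fold changes of -4.88, -4.01 and -4.31), while the values at 4w and 21w, -3.56 ± 1.47 and -3.26 ± 1.44, had adjusted p = 0.0749 and 0.101 (edgeR), and DESeq2 called both (adjusted p = 0.00757 and 0.0155). The groups did not overlap, but the spread at 0w was wide. The 12w call was lost when any 1 library of either group was left out, the 8w call when 0w replicate 3, 8w replicate 1 or 8w replicate 3 was left out, and the 16w call when 0w replicate 3, 16w replicate 1 or 16w replicate 3 was left out.

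SAUR16 and SAUR50 fell by 4w and were called higher on no return. Both are light-responsive in *A. thaliana* seedlings, where they take part in the opening and growth of cotyledons. SAUR16 (AT4G38860) had 7.11, 5.96 and 6.08 CPM in 0w, 0.465, 1.09 and 0.793 in 4w, 0.312, 0.485 and 0.553 in 8w, 0.438, 0.509 and 0.564 in 12w, 0.41, 0.302 and 0.781 in 16w and 0.235, 0.731 and 1.36 in 21w. Every cold library lay below every 0w library. The log2 fold change was between -3.80 ± 0.67 (8w, adjusted p = 0.000214, edgeR) and -3.01 ± 0.65 (4w, adjusted p = 0.00146). After return SAUR16 had 0.776, 0.953 and 0.303 CPM in 12w+5dLD, 1.07, 0.47 and 2.43 in 16w+5dLD and 1.56, 2.28 and 1.17 in 21w+5dLD, still below all 0w libraries. The difference from 0w was called at all 3 returns, but in 16w+5dLD the call did not hold without 16w+5dLD replicate 1 or 2, and in 21w+5dLD without any 1 library except 21w+5dLD replicate 2.

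SAUR50 (AT4G34760) had 13.7, 13.2 and 14.4 CPM in 0w and 1.8, 1.88 and 2.32 in 4w, its lowest group. Later cold groups were at 1.5, 3.45 and 4.02 CPM (8w), 3.01, 4.23 and 2.88 (12w), 5.28, 3.51 and 1.72 (16w) and 5.88, 4.44 and 4.73 (21w). No cold library overlapped with 0w. The log2 fold change was -2.78 ± 0.40 at 4w (adjusted p = 3.74e-05, edgeR) and -1.46 ± 0.38 at 21w (adjusted p = 0.00701). SAUR50 was at 4.39, 3.53 and 2.52 CPM in 12w+5dLD, 5.62, 3.11 and 5.46 in 16w+5dLD and 7.42, 5.01 and 5.64 in 21w+5dLD, with no call on any return. It was called lower than 0w at all 3 returns, and the 21w+5dLD call did not hold without any 1 library except 21w+5dLD replicate 1.

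Another 6 homologs fell in cold and were called higher on return from 12w or 16w: SAUR6, SAUR30, SAUR51, SAUR52, SAUR53 and SAUR54. SAUR53 (AT1G19840) had 7.78, 7.75 and 8.89 CPM in 0w, 0.756, 0.521 and 0.906 in 4w, 0.499, 0.971 and 1.46 in 8w, 0.712, 0.713 and 1 in 12w, 1.08, 1.39 and 0.625 in 16w and 2.35, 1.57 and 2.05 in 21w. It was low throughout cold, with log2 fold changes between -3.47 ± 0.51 at 4w and -2.03 ± 0.48 at 21w. On return it reached 12.2, 10.9 and 11.6 CPM at 12w+5dLD and 8.74, 4.64 and 7.52 at 16w+5dLD. These increases over 12w and 16w were 3.83 ± 0.52 (adjusted p = 3.53e-05, edgeR) and 2.75 ± 0.49 (adjusted p = 0.000463) on the log2 scale. All 3 libraries of 12w+5dLD lay above the highest 0w library, but the difference from 0w was 0.51 ± 0.46 and was not called. At 21w+5dLD the values were 6.02, 7.8 and 1.46 CPM, the last from replicate 3.

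SAUR54 (AT1G19830) was not called at 4w and had its lowest group mean at 21w. It had 9.71, 5.18 and 9.55 CPM at 0w and 9.3, 3.33 and 4.76 at 4w, an overlapping range. Cold libraries were then at 1.37, 2.53 and 2.56 CPM (8w), 2.57, 1.32 and 1.5 (12w), 2.41, 2.36 and 1.25 (16w) and 0.0941, 0.506 and 0.487 (21w). It was called lower at 8w (log2 fold change -1.91 ± 0.65), 12w (-2.17 ± 0.66), 16w (-2.02 ± 0.65) and 21w (-4.47 ± 0.73, adjusted p = 0.000148, edgeR). The 8w call did not hold without any 1 of 5 libraries (all but 0w replicate 2), the 12w call without 12w replicate 2 or 12w replicate 3, and the 16w call when 0w replicate 1, 0w replicate 3 or 16w replicate 3 was left out. On return it stood at 9.67, 11 and 12 CPM in 12w+5dLD and at 6.54, 4.81 and 8.83 in 16w+5dLD, the former at or above most of the 0w range and the latter within or just below it, and at 0.948, 2.22 and 0.188 in 21w+5dLD, below every 0w library. The increase was called by edgeR from 12w (2.59 ± 0.67, adjusted p = 0.00683) and had adjusted p = 0.0518 from 16w (1.74 ± 0.65). DESeq2 called the increase from 16w (1.76, adjusted p = 0.00952).

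SAUR30 (AT5G53590) had 36.2, 36.1 and 28.2 CPM in 0w, 6.57, 5.73 and 9.34 in 4w, 3.62, 6.25 and 4.02 in 8w, 4.71, 6.67 and 4.32 in 12w, 7.28, 8.77 and 5.52 in 16w and 13.8, 12.7 and 12.5 in 21w. Its level was lowest in the middle of the cold period, with log2 fold changes of -2.85 ± 0.33 at 8w (adjusted p = 2.8e-06, edgeR) and -1.37 ± 0.31 at 21w (adjusted p = 0.00264). It stood at 13.8, 16.6 and 19.2 CPM in 12w+5dLD, 21, 31.9 and 28.4 in 16w+5dLD and 31.6, 33.8 and 12.4 in 21w+5dLD. The increases from 12w and 16w were 1.65 ± 0.32 (adjusted p = 0.000707) and 1.91 ± 0.32 (adjusted p = 0.000268), and SAUR30 and SAUR53 were called on both of these returns in every fit that left out 1 library.

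SAUR52 (AT1G75590) came back only in part. Its values were 14.8, 7.7 and 12.5 CPM in 0w, 0.407, 0.417 and 0.849 in 4w, 1.18, 0.917 and 0.151 in 8w, 0.383, 0.459 and 0.564 in 12w, 1.49, 2.24 and 0.729 in 16w and 1.55, 0.843 and 1.12 in 21w. The log2 fold change was between -4.62 ± 0.64 (12w, adjusted p = 1.64e-05, edgeR) and -2.97 ± 0.59 (16w, adjusted p = 0.000561), with no overlap between cold and 0w libraries. At 12w+5dLD it had 4.08, 3.19 and 1.82 CPM, an increase of 2.68 ± 0.59 over 12w (adjusted p = 0.00213). At 16w+5dLD it had 2.54, 1.23 and 2.24 CPM and at 21w+5dLD 1.73, 1.82 and 1.5 CPM, neither called against the end of cold, and the 9 return libraries all lay below the lowest 0w library.

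**Figure D3:**
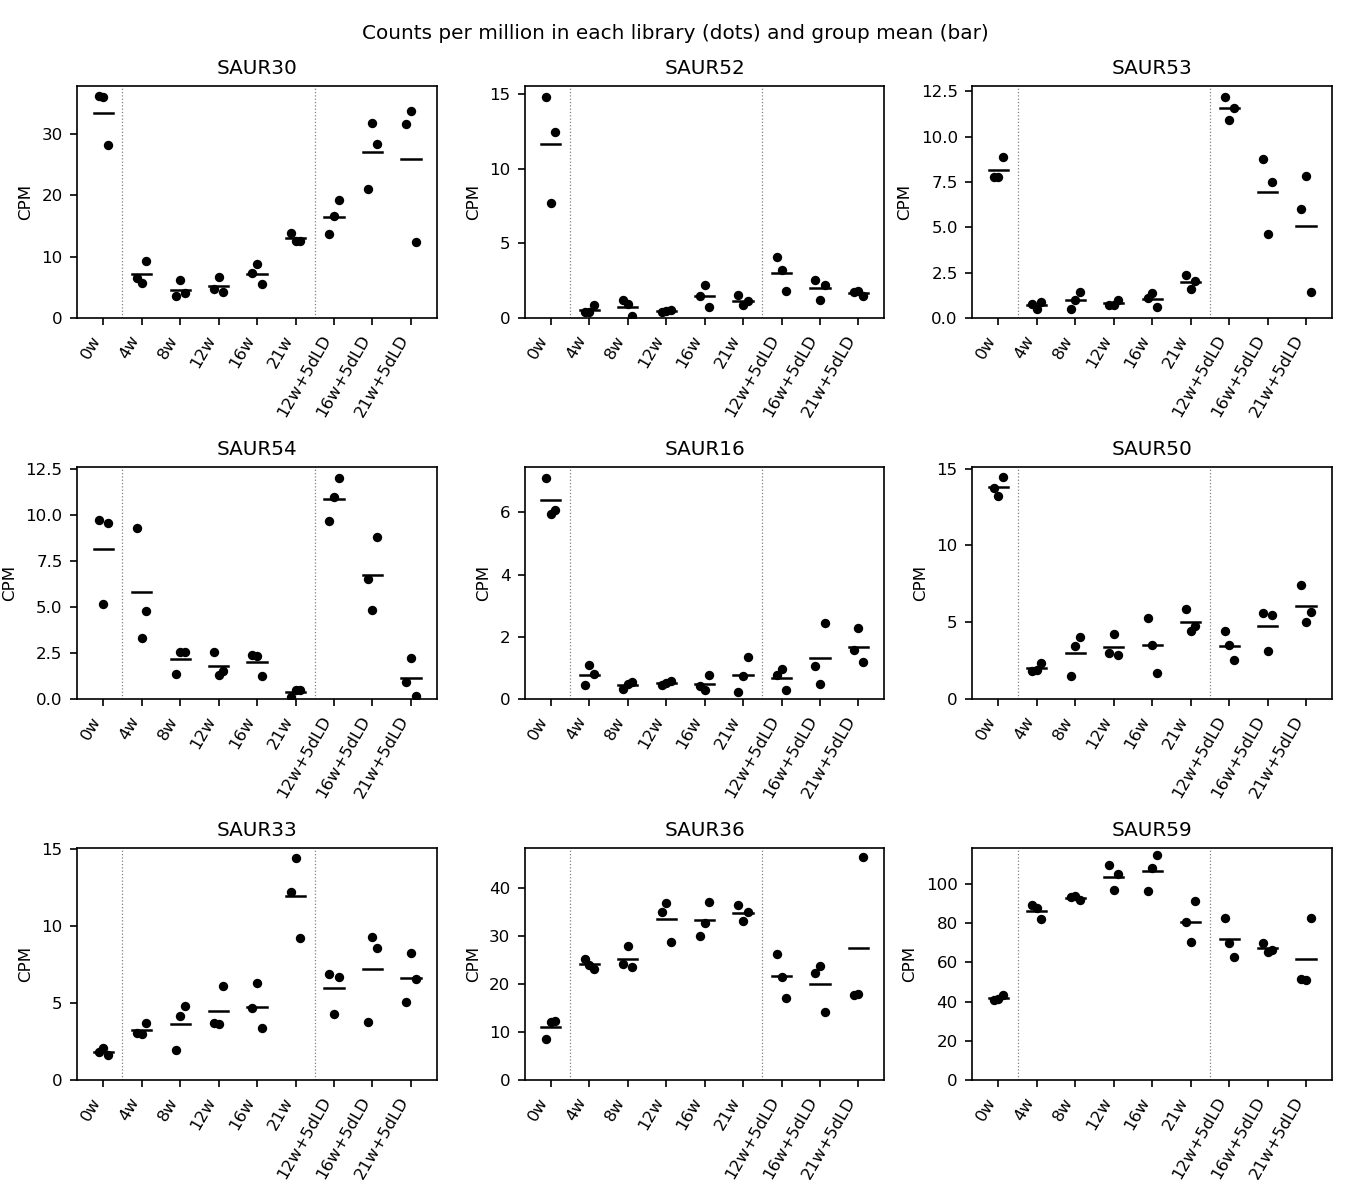
CPM in each library (dots) and group mean (bars) for the 9 homologs called against 0w at 3 or more durations with a group mean of at least 5 CPM, each panel on its own linear axis from 0. SAUR53 and SAUR54 sit above 9 CPM in all 12w+5dLD libraries, SAUR16, SAUR50 and SAUR52 stay below their 0w values after every return, and every cold library of SAUR36 and SAUR59 is above 0w.

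The 2 homologs of lower level in this group were SAUR51 and SAUR6. SAUR51 (AT1G75580) was at 3 ± 0.617 CPM at 0w and between 0.252 ± 0.153 (16w) and 0.368 ± 0.061 CPM (21w) in cold, called lower at all 5 durations in every fit that left out 1 library. It was at 1.9 ± 1.02 CPM at 12w+5dLD and 1.06 ± 0.259 at 16w+5dLD, log2 increases of 2.44 ± 0.74 (adjusted p = 0.0188, edgeR) and 2.04 ± 0.73 (adjusted p = 0.0441). The call from 12w was no longer made when 12w replicate 1, 12w replicate 2, 12w+5dLD replicate 1 or 12w+5dLD replicate 3 was left out, and that from 16w without any 1 library except 16w replicate 1. SAUR6 (AT2G21210) was lowest after the shortest cold: 2.28 ± 1 CPM in 0w, 0.0939 ± 0.0362 in 4w, 0.406 ± 0.313 in 8w, 0.694 ± 0.193 in 12w, 1.7 ± 1.01 in 16w and 0.628 ± 0.175 in 21w. It was called lower at 4w (log2 fold change -4.51 ± 0.72, adjusted p = 9.17e-05), 8w, 12w and 21w, and the 12w and 21w calls were each no longer made without 0w replicate 1 or any 1 library of the cold group. At 12w+5dLD it was at 3.14 ± 1.63 CPM, a log2 increase of 2.17 ± 0.63 (adjusted p = 0.0149) that was no longer called without 12w replicate 1 or 12w+5dLD replicate 1. At 16w+5dLD it was at 4.29 ± 0.526 CPM, an increase over 16w that DESeq2 alone called (1.35, adjusted p = 0.0437).

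The homologs that rose in cold were SAUR8, SAUR9, SAUR33, SAUR36 and SAUR59. SAUR36 (AT2G45210), which promotes leaf senescence in *A. thaliana*, had 8.5, 12.2 and 12.2 CPM in 0w, 25.1, 24 and 23.1 in 4w, 24.1, 27.9 and 23.4 in 8w, 34.8, 36.9 and 28.8 in 12w, 30, 32.6 and 37 in 16w and 36.3, 33 and 34.8 in 21w. Every cold library exceeded every 0w library. The log2 fold change was 1.13 ± 0.28 at 4w (adjusted p = 0.00476, edgeR) and 1.66 ± 0.29 at 21w (adjusted p = 0.000244), and the 4w call did not hold without 0w replicate 1, where the change was 0.98. After return the values were 26.2, 21.5 and 17.1 CPM in 12w+5dLD, 22.3, 23.7 and 14.1 in 16w+5dLD and 17.7, 17.9 and 46.3 in 21w+5dLD, all above 0w, with the highest value in 21w+5dLD replicate 3.

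SAUR59 (AT3G60690) was higher in cold with little spread between libraries. It had 41, 41.4 and 43.3 CPM in 0w, 89.2, 87.7 and 82 in 4w, 93.2, 93.8 and 91.7 in 8w, 109, 96.7 and 105 in 12w, 96.3, 108 and 115 in 16w and 80.7, 70.6 and 91.1 in 21w. It was higher at 4w (log2 fold change 1.04 ± 0.14), 8w (1.15 ± 0.14), 12w (1.31 ± 0.14) and 16w (1.34 ± 0.14, adjusted p = 1.08e-06, edgeR), while the change at 21w, 0.95 ± 0.14 with adjusted p = 6.29e-05, was under 2-fold. No cold library overlapped with 0w. The return libraries were at 82.4, 69.9 and 62.8 CPM (12w+5dLD), 69.9, 65.5 and 66.2 (16w+5dLD) and 51.8, 51 and 82.5 (21w+5dLD). The differences from the end of cold, -0.53 ± 0.14 in 12w+5dLD (adjusted p = 0.00818) and -0.66 ± 0.14 in 16w+5dLD (adjusted p = 0.00173), were under 2-fold.

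SAUR33 (AT3G61900) was highest in 21w. It had 1.81, 2.06 and 1.62 CPM in 0w, 3.08, 2.97 and 3.68 in 4w, 1.93, 4.15 and 4.83 in 8w, 3.72, 3.67 and 6.14 in 12w, 4.66, 6.29 and 3.38 in 16w and 12.2, 14.4 and 9.26 in 21w. It was called higher at 12w (log2 fold change 1.30 ± 0.37), 16w (1.38 ± 0.37) and 21w (2.71 ± 0.39, adjusted p = 4.49e-05, edgeR), and the 12w call did not hold without 12w replicate 3. The 8w range overlapped that of 0w in 1 library (1.93 CPM). The 21w libraries lay above all other libraries except 1 of 16w+5dLD, which at 9.33 CPM was above the lowest of them. After return it was at 6.93, 4.31 and 6.71 CPM in 12w+5dLD, 3.76, 9.33 and 8.6 in 16w+5dLD and 5.07, 8.26 and 6.58 in 21w+5dLD, higher than 0w in all 9.

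SAUR9 (AT4G36110) was at 0.467 ± 0.0418 CPM in 0w, 1.69 ± 0.335 in 8w, 1.9 ± 0.474 in 12w and 2.5 ± 0.778 in 21w, where it was called higher, with log2 fold changes of 1.84 ± 0.51, 2.01 ± 0.52 and 2.40 ± 0.52. At 4w it was 1.13 ± 0.145 CPM, with every library above 0w, and DESeq2 alone called it higher (log2 fold change 1.25, adjusted p = 0.0451). At 16w it was 0.939 ± 0.302 CPM (adjusted p = 0.135, edgeR). On return from 12w it fell to 0.457 ± 0.343 CPM, a log2 change of -2.04 ± 0.52 (adjusted p = 0.00617). SAUR8 (AT2G16580) was at 3.39 ± 0.413 CPM at 0w and was higher at 4w (8.26 ± 2.11 CPM, adjusted p = 0.0131) and 21w (8.09 ± 3.71 CPM, adjusted p = 0.0162). The 4w call did not hold without 4w replicate 2 and the 21w call when 0w replicate 2, 0w replicate 3 or 21w replicate 2 was left out.

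A few homologs were called by edgeR at a single duration. SAUR15 (AT4G38850), which promotes lateral and adventitious root formation in *A. thaliana*, was lower at 21w, at 0.105 ± 0.0916 CPM against 0.777 ± 0.151 at 0w (log2 fold change -2.83 ± 0.86, adjusted p = 0.0179, edgeR), with no overlap between the groups. These are 6 counts against 47, and the call was lost in edgeR with only the groups compared (adjusted p = 0.0776). DESeq2 called SAUR15 lower at 4w as well (log2 fold change -1.82, adjusted p = 0.0329). SAUR41 (AT1G16510), a cell expansion gene, was lower at 21w, at 1.43 ± 0.542 against 4.04 ± 1.21 CPM (adjusted p = 0.0276), a call that did not hold when 0w replicate 1, 21w replicate 2 or 21w replicate 3 was left out. SAUR76 (AT5G20820), whose product acts with SAUR78 on ethylene receptor signalling in *A. thaliana*, had 28 counts at 0w and 2 at 8w, a ratio of 12.8 with a counting interval of 3.24 to 111, and was called lower there (adjusted p = 0.00837). SAUR78 (AT1G72430) was lower in 8w, at 8.19 ± 4.92 against 17.4 ± 1.49 CPM (adjusted p = 0.0182), a call that did not hold without 8w replicate 2 or 8w replicate 3, and it was lower again in 12w+5dLD than in 12w (4.35 ± 1.2 against 10.5 ± 3.72 CPM, adjusted p = 0.00917).

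On return from 12w, 7 homologs were higher, SAUR6, SAUR30, SAUR32, SAUR51, SAUR52, SAUR53 and SAUR54 (background 5.77%), and SAUR9 and SAUR78 were lower (background 4.88%). The 7 include 6 that had fallen in cold. The other, SAUR32 (AT2G46690), which acts in the apical hook of *A. thaliana* seedlings, was called at no duration of cold: it was at 27.6 ± 8.6 CPM in 0w, 25.8 ± 9.05 in 12w and 57 ± 7.28 in 12w+5dLD (log2 fold change 1.14 ± 0.32, adjusted p = 0.0105, edgeR), a call that did not hold without 12w replicate 3. On return from 16w, SAUR30, SAUR51 and SAUR53 were higher by edgeR (background 6.83%), and DESeq2 also called SAUR6 and SAUR54 higher. SAUR44 (AT5G03310) was lower on that return (background 4.56%), with 43 counts at 16w and 1 at 16w+5dLD, a ratio of 45.8 with a counting interval of 7.8 to 1850, and this call did not hold when 16w replicate 3, 16w+5dLD replicate 1 or 16w+5dLD replicate 3 was left out. The median log2 change of the 30 homologs was 0.35 on return from 12w and 0.58 from 16w, beside 0.01 and 0.02 for all tested genes.

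On return from 21w, 0 homologs were called in either direction by edgeR, against a background of 0.176% lower and 0.217% higher. At an unadjusted p under 0.05, 5 homologs differed: SAUR30, SAUR33, SAUR53, SAUR54 and SAUR59. DESeq2 called SAUR30 (log2 fold change 1.00, adjusted p = 0.0285) and SAUR53 (1.35, adjusted p = 0.0488) higher. Without 21w+5dLD replicate 3, edgeR called SAUR30 (1.32 ± 0.26, adjusted p = 0.00202), SAUR53 (1.78 ± 0.39, adjusted p = 0.00393) and SAUR54 (2.10 ± 0.59, adjusted p = 0.0199) higher and SAUR44 lower (adjusted p = 0.0141), with backgrounds of 2.94% higher and 2.9% lower. In that library SAUR30 was at 12.4 CPM and SAUR53 at 1.46 CPM, beside 31.6 and 33.8 CPM and 6.02 and 7.8 CPM in the other replicates of its group.

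The test of the difference between returns called SAUR53 alone: its change from 12w exceeded that from 21w by 2.48 ± 0.66 on the log2 scale (adjusted p = 0.0473, edgeR), where 3.03% of all tested genes differed. The call did not hold without 21w+5dLD replicate 3 (2.05, adjusted p = 0.0552) and without any 1 library of 12w, 21w or 12w+5dLD, and it was kept without 21w+5dLD replicate 1 or 2. Without replicate 3, SAUR31 was called in its place (0.92 ± 0.18, adjusted p = 0.0132). DESeq2 called SAUR6, SAUR51, SAUR52 and SAUR53. Between the returns from 16w and 21w, edgeR called 0 homologs to differ (1.78% of all tested genes did), 7 had an unadjusted p under 0.05, and DESeq2 called SAUR72.

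After 5 days in LD several homologs were called against 0w. At 12w+5dLD, SAUR16, SAUR27, SAUR30, SAUR50, SAUR52, SAUR66 and SAUR78 were lower, 7 of 30 (background 3.64%), and SAUR10, SAUR32 and SAUR33 were higher (3.24%). SAUR27 and SAUR66 had passed the filter only through 0w, which favours a lower call at any return. SAUR27, with 3 counts in this group, was not called by DESeq2 (adjusted p = 0.233), with no filter on low counts (0.0571), with the replicate block (0.0656) or in 5 of the 6 fits that left out 1 library, and the call of SAUR66 was lost in all 6. The 7 lower calls became 4 when 0w replicate 1, 0w replicate 2, 0w replicate 3 or 12w+5dLD replicate 3 was left out, and 3 without 12w+5dLD replicate 2. The calls of SAUR16, SAUR50 and SAUR78 were kept in all 6 fits that left out 1 library. Of the higher calls, that of SAUR32 was lost in 4 of these 6 fits, and those of SAUR10 and SAUR33 were kept in all 6. At 16w+5dLD, SAUR16, SAUR31, SAUR50, SAUR52 and SAUR66 were lower (background 3.54%) and SAUR10 and SAUR33 higher (4.2%). Those 5 lower calls became 3 without 16w+5dLD replicate 1 and 2 without 16w+5dLD replicate 2, and only SAUR33 was called higher without 0w replicate 3 or 16w+5dLD replicate 1. SAUR31 (AT4G00880) was at 44.7 ± 2.48 CPM in 0w and 21.6 ± 1.67 in 16w+5dLD (log2 fold change -1.05 ± 0.16, adjusted p = 0.000146, edgeR), and the change was under 2-fold without 16w+5dLD replicate 2 (-0.99). In cold SAUR31 was already at 23.1 ± 1.1 (8w) to 29.5 ± 1.77 CPM (16w), and no cold library overlapped with 0w. Those changes were under 2-fold, with DESeq2 log2 fold changes of -0.97 (8w, adjusted p = 3.62e-08) to -0.62 (16w, adjusted p = 0.000568).

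At 21w+5dLD, 10 homologs were lower than in 0w, SAUR1, SAUR6, SAUR16, SAUR27, SAUR41, SAUR50, SAUR51, SAUR52, SAUR54 and SAUR66 (background 4.04%), and SAUR8, SAUR9, SAUR32, SAUR33 and SAUR36 were higher (3.69%). Of the 10, SAUR1, SAUR27 and SAUR66 passed the filter only through 0w, so this count is not a test against the background. Without 21w+5dLD replicate 3 the counts were 9 lower (background 3.92%) and 3 higher (3.45%), with SAUR9, SAUR16, SAUR36 and SAUR50 no longer called (log2 fold change 0.93, -1.74, 0.70 and -1.16) and SAUR31 called lower (-1.16 ± 0.14). DESeq2 did not call SAUR27 here (adjusted p = 0.108), and in 3 of the 6 fits that left out 1 library its edgeR call was lost. The count of lower calls was 6 without 0w replicate 3 or 21w+5dLD replicate 1, and that of higher calls was 3 without 0w replicate 3. SAUR41 reached its lowest level here, 0.801 ± 0.497 CPM (log2 fold change against 0w -2.32 ± 0.50, adjusted p = 0.00273, edgeR). SAUR10 (AT2G18010), a growth gene of *A. thaliana* stems and leaves, was called in cold by DESeq2 alone, at 16w, and was at 2.5 ± 0.551 CPM at 12w+5dLD against 0.469 ± 0.189 at 0w (adjusted p = 0.00754). It was at 1.84 ± 1.06 CPM at 16w+5dLD (adjusted p = 0.023), a call that did not hold when 0w replicate 2, 0w replicate 3 or 16w+5dLD replicate 1 was left out.

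Set against the mean of the 4 shorter durations, 21w was lower in SAUR54 (background 1.56%) and higher in SAUR30, SAUR33, SAUR53 and SAUR76 (background 3.17%). SAUR54 was lower, with a log2 difference of -2.82 ± 0.62 (adjusted p = 0.00441, edgeR). SAUR33 was 1.58 ± 0.26 higher (adjusted p = 0.000456) and SAUR30 1.13 ± 0.23 higher (adjusted p = 0.00229). SAUR76 had 0.988, 1.8 and 1.75 CPM at 21w and at most 0.718 CPM in any of the 12 shorter cold libraries, a log2 difference of 2.85 ± 0.55 (adjusted p = 0.00173). The increase of SAUR53, 1.18 ± 0.34 (adjusted p = 0.025), was no longer called without 21w replicate 1 or 21w replicate 3.

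Several homologs carry *A. alpina* locus codes that follow each other with no other gene of the table between, so that calls can be set side by side for neighbours. No homolog shared a count of 100 or more with a neighbouring gene in any library, a check that the homologs with fewer counts could not fail. SAUR14, SAUR15 and SAUR16 follow each other. SAUR14 (AT4G38840), light-responsive in seedlings like SAUR16, was never called, at 9.48 ± 0.915 CPM at 0w and between 6.03 ± 2.46 (21w) and 10.8 ± 0.947 CPM (4w) in cold, where SAUR16 was lower at all 5 durations. SAUR50 and SAUR1 are neighbours that both fell. SAUR51 and SAUR52 fell together at all 5 durations, and both were higher on return from 12w. Of the neighbours SAUR76 and SAUR70 (AT5G20810), SAUR76 was called lower at 8w and SAUR70 was at 1.4 ± 0.0439 CPM against 0.701 ± 0.504 at 0w (adjusted p = 0.486, edgeR). Differences between neighbours in their change were not tested.

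**Figure D4:**
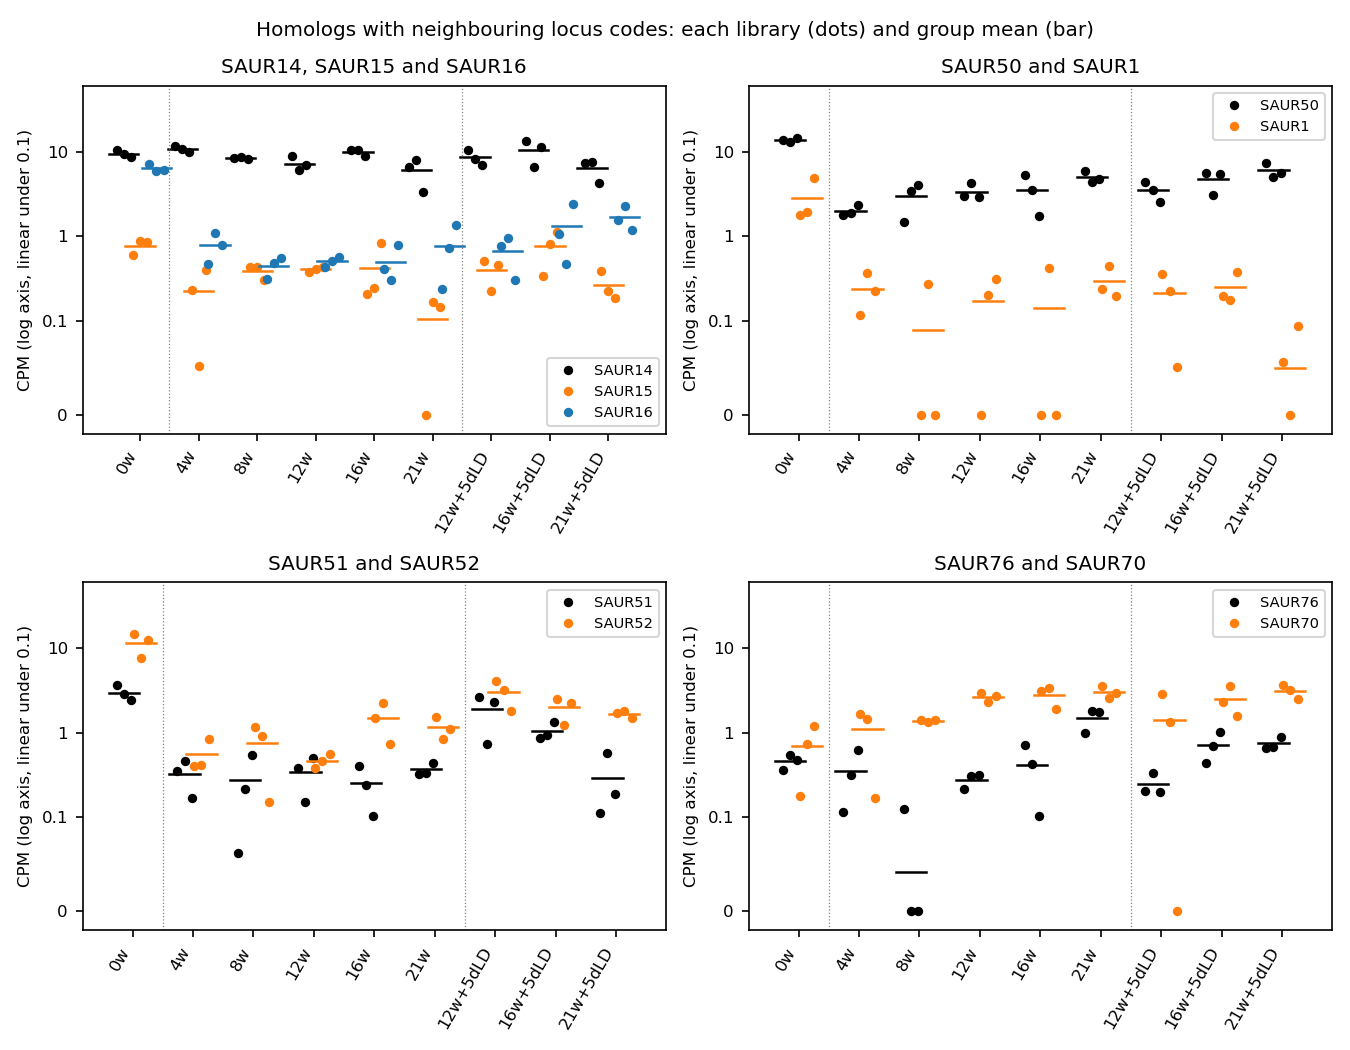
CPM in each library (dots) and group mean (bars) for 4 sets of homologs with neighbouring locus codes, on a log axis that is linear under 0.1. SAUR14 stays between 3.31 and 13.6 CPM in all libraries while SAUR16 drops from at least 5.96 CPM at 0w to at most 1.36 CPM in cold, and SAUR51 and SAUR52 drop together.

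Grouped by clade or set, at 8w, where 9.11% of all tested genes were lower and 6.26% higher, 6 of the 11 tested members of the set of SAUR1 to SAUR16, SAUR50, SAUR51 and SAUR54 were lower, among them SAUR1, which passed the filter only through 0w, and 1 was higher. SAUR76 and SAUR78 were lower. The SAUR27, SAUR29, SAUR66 and SAUR67 genes of the SAUR26 and SAUR63 clades could be tested only through their 0w counts, so their lower calls are a description and are not counted by clade. Of the set of SAUR30 to SAUR33, 1 of 4 was lower at 8w, and at 12w, 16w and 21w SAUR30 was lower and SAUR33 higher (backgrounds 9.38%, 10.2% and 7.14% lower, and 7.07%, 7.07% and 5.14% higher). In the SAUR41 clade, 0 of 3 tested members (SAUR41, SAUR71 and SAUR72) were called at 4w, 8w, 12w or 16w by edgeR, and 1 was lower at 21w. SAUR72 (AT3G12830) was at 14.5 ± 0.839 CPM in 0w, 8.74 ± 1.24 in 8w and 7.77 ± 1.95 in 12w, a change under 2-fold (log2 -0.90 ± 0.21 in 12w, adjusted p = 0.00271). SAUR71 (AT1G56150) lay between 1.97 ± 0.024 and 3.72 ± 1.64 CPM over all groups.

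The other genes of the pathway are read against 7.14% to 10.2% of all tested genes lower and 5.14% to 7.07% higher at the 5 durations. Of these genes, 0 of 4 tested auxin receptors were called at 4w, 8w, 12w or 16w, and TIR1 (AT3G62980) was lower at 21w (56.8 ± 6.58 against 118 ± 2.38 CPM, log2 fold change -1.05, adjusted p = 0.000196, edgeR). Of 22 tested Aux/IAA repressors, which hold auxin response factors inactive until auxin triggers their breakdown, 1 to 3 were lower and at most 2 higher at each duration. IAA19 (AT3G15540), itself an early auxin response gene, fell from 27.5 ± 3.35 CPM in 0w to 6.45 ± 0.588 in 4w and was at 20.6 ± 7.14 in 21w, where it was not called. IAA7 (AT3G23050) had 2536 counts over the 0w libraries and none at 12w or 16w. Of 14 auxin response factors, 0 were called in 4w and ARF2 (AT5G62000) was higher from 8w on, at 688 ± 60 CPM in 21w against 234 ± 25.9 in 0w.

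At the end of the pathway in which SAUR proteins act, 1 of 5 tested plasma membrane H+-ATPases, AHA1 (AT2G18960), was lower in 8w (background 9.11%, 525 ± 78.3 against 1140 ± 36.2 CPM, log2 fold change -1.11, adjusted p = 0.000282, edgeR) and in 12w (549 ± 87.3 CPM). AHA1 was higher on return from 12w (background 5.77%), at 1170 ± 267 CPM (adjusted p = 0.000571), and so was AHA2 (AT4G30190), from 224 ± 34.2 to 475 ± 92.2 CPM (adjusted p = 0.0185). These are the main pumps of *A. thaliana* cells. Of 7 tested PP2C.D phosphatases, 1 (AT4G33920) was higher at 12w (background 7.07%), at 73.2 ± 10.9 against 35.7 ± 6.39 CPM (adjusted p = 0.00854), and lower on return from 12w (background 4.88%), at 18.5 ± 2.34 CPM (adjusted p = 9.09e-05). The remaining 6 were called in no comparison of cold with 0w and on no return.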

How the data were processed

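RNA was sequenced from 27 stem libraries, 3 in each of 9 groups named by the labels, described in the study's methods as biological replicates. Reads were aligned by the authors with HISAT2 and quantified with StringTie, and the deposited values are whole-number counts per gene taken with a Python script from StringTie output. The library kit marks strand. Not given in the sources used here: whether counting used strand, the treatment of reads shared by similar genes, the genome build and the versions of these tools. Counts of closely related SAUR genes are therefore uncertain where reads could be split between them. The deposited comparison tables hold the authors' DESeq2 fold changes and adjusted p-values for genes past their thresholds, and only their pairing of gene and locus was read. It filled a blank locus for 1 gene and 0 SAUR homologs.

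Counts were fitted in 1 model of the 9 group means with edgeR 4.0.16 (R 4.3.3, limma 3.58.1): TMM scaling, filterByExpr by group, glmQLFit and glmQLFTest, 18 residual degrees of freedom, and Benjamini-Hochberg adjustment over 19337 genes. Genes were called at an adjusted p under 0.05 and at least 2-fold, and returns were compared by an interaction contrast at an adjusted p under 0.05. Standard errors (SE) are the log2 fold change divided by the square root of F. Where all libraries of a group were at 0, a bound was computed against 3 counts over the group, and where a group had 1 to 3 counts, the ratio of pooled levels is given with a 95% counting interval.

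Alternatives were other scalings, DESeq2 1.42.0, other filters (none, or at least 10 counts in 3 libraries), the adjusted p alone, only the groups compared, a replicate block, each library left out, and homologs sharing counts with a neighbour left out. Values in every library are given for homologs called against 0w at 3 or more durations with a highest group mean of at least 5 CPM. Other called homologs are given by group means or counts. Library values shown for homologs outside this rule, and the pathway genes named, were chosen after their values were seen. The homologs and gene lists were chosen with earlier results of these data known. Gene symbols are *A. thaliana* names matched by locus, and no sequence was used here.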

Additional observations from a re-analysis of the deposited data

Results flagged for a closer look

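The test of a difference between the returns from 12 and from 21 weeks of cold called SAUR53, but the call was lost in most fits that left out 1 library. The change was 2.48 ± 0.66 larger from 12w on the log2 scale (edgeR quasi-likelihood interaction test, adjusted p = 0.0473), with 3.83 ± 0.52 from 12w and 1.35 ± 0.47 from 21w. All 3 libraries at 12w+5dLD lay above the highest at 12w, and 2 of 3 at 21w+5dLD lay above the highest at 21w. The exception, 21w+5dLD replicate 3, had 1.46 CPM, and without it the difference was 2.05 with adjusted p = 0.0552. The call was lost in 10 of the 12 fits that left out 1 library (adjusted p = 0.0261 to 0.116 over the 12), with no filter on low counts (adjusted p = 0.0538), with the replicate block (0.0683) and with only the groups compared (0.202).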

How the results depend on the processing

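Of 129 values named for single homologs, 901 recalculations under other scalings, filters, tests and models kept the direction in all cases, and 43 of them lost the call: 22 with only the groups compared, 9 with the replicate block, 7 with DESeq2, 4 with no filter and 1 with upper-quartile scaling. Of 825 that left out 1 library, 160 lost the call and 0 reversed, in fits with fewer libraries. Of 234 recalculated counts of called homologs, 217 stayed within 1.5 times the original and 17 did not. The cause of these shifts was not tested. With DESeq2, 5 homologs were higher at 4w, 5 at 16w, 5 on return from 16w and 2 on return from 21w, and 4 and 1 differed in their return between 12w and 21w and between 16w and 21w. With the adjusted p alone, 3 were lower on return from 16w, 5 were higher than 0w at 12w+5dLD and 5 at 16w+5dLD. With only the groups compared, 11 were lower at 4w, 0 on return from 12w and 0 from 16w, and 6 were lower and 2 higher than 0w at 21w+5dLD. The number whose return differed between 12w and 21w was 0 with no filter, 0 with only the groups compared and 0 with the replicate block. No homolog shared a count of 100 or more with a neighbouring gene, so none was left out under that rule, which homologs with fewer counts could not meet.

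Deviations of same-numbered libraries correlated at -0.04 to 0.09, too low for the replicate numbers to be taken as pairs. With the replicate block, 14 homologs were lower in 8w, 11 in 12w, 11 in 16w and 13 in 21w. Each library was also set against the 3 libraries of the other group in its comparison. Over the 11 comparisons of groups, 34 of 66 libraries correlated best with their own number: 6 of 6 for 12w+5dLD against 12w and for 16w+5dLD against 0w, and 1 of 6 for 21w against 0w and for 12w+5dLD against 0w.

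With 1 library left out, lower calls ranged from 7 to 7 in 4w, 11 to 14 in 8w, 10 to 11 in 12w, 9 to 12 in 16w and 9 to 13 in 21w, and higher calls from 2 to 3, 3 to 4, 3 to 4, 3 to 4 and 3 to 4. On return from 12w they ranged from 2 to 2 lower and 5 to 7 higher, from 16w 0 to 1 and 2 to 3, and from 21w 0 to 1 and 0 to 3. Against 0w they ranged from 3 to 5 lower and 2 to 4 higher in 12w+5dLD, 2 to 6 and 1 to 3 in 16w+5dLD, and 6 to 9 and 3 to 5 in 21w+5dLD. For 21w against the shorter durations they were 1 to 1 lower and 3 to 4 higher. Differences between returns ranged from 0 to 1 (12w and 21w) and 0 to 0 (16w and 21w). SAUR67, with few counts per library, lost its 4 calls in cold when any 1 library of the groups compared was left out, and 3 libraries a group limit what differences could be detected.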
